A study of Homo sapiens with 6 samples.

Results

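The nectins, the poliovirus receptor PVR and the cell adhesion molecules CADM1 and CADM4 were followed in HCT116 cells, a human cell line from a colorectal carcinoma, after exposure to oxaliplatin. The genes were taken by symbol from the deposited table, and all 7 were found among its 27942 genes: NECTIN1, NECTIN2, NECTIN3, NECTIN4, PVR, CADM1 and CADM4. They were selected on the counts of this same comparison, with its fold changes known, so their differences between the groups are given as a description, without a p-value. The untreated group (NT) held 3 libraries of HCT116 cells cultured for 24 h without drug, and the oxaliplatin group (OXA) held 3 libraries of the same line kept for 24 h with 0.5 µM oxaliplatin, a platinum compound that forms adducts on DNA. Both groups were grown in RPMI medium with fetal serum, and no gene had been altered by engineering in either. The study lists the line as wild-type for p53 and APC and mutated in CTNNB1. Sources differ on antibiotics: the labels name penicillin with streptomycin, and the methods of the study state that none were added. One line stands for each group, and the labels do not say whether the libraries came from separate cultures, so p-values measure only the spread between these libraries.

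Nectins are immunoglobulin-like proteins of the cell surface that pair with one another across cell contacts and bind the actin cytoskeleton through afadin, the product of AFDN, next to the cadherin complex of adherens junctions. PVR and the CADM proteins are nectin-like molecules of similar build that do not bind afadin. PVR and NECTIN2 are also ligands of CD226, TIGIT, CD96 or PVRIG, receptors by which natural killer (NK) and T cells recognize other cells, and CADM1 is the ligand of CRTAM.

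Library totals lay between 32979521 and 40967880 counts. The epithelial genes EPCAM, KRT8 and KRT18 were detected in every library. Markers of intestinal epithelium were mixed, since CDH17 and LGALS4 had at most 3 counts, whereas KRT20, VIL1 and CDX2 were detected in every library. KRT20 had 26 to 61 raw counts, VIL1 39 to 95 and CDX2 434 to 599. Their log2 fold changes were -0.48, -0.38 and 0.24, and edgeR called none of them with or without the replicate number as a block. KRT8 and KRT18 were called higher in OXA with the block (log2 fold changes 0.50 and 0.32, edgeR adjusted p = 0.0271 and 0.0184). They were not called without it (log2 fold changes 0.47 and 0.31). PTPRC, a marker of all leukocytes, had at most 2 counts in any library. Of the fibroblast markers, COL1A1 had 107 to 273 raw counts, PDGFRB 4 to 18, and COL1A2, DCN and LUM at most 2. NCAM1, listed as an NK cell marker, had between 63 and 89 raw counts in NT and between 28 and 52 in OXA. It was called lower with the block (log2 fold change -0.92, edgeR adjusted p = 0.0327) but not without it (-0.89, edgeR adjusted p = 0.175). The part of these markers in the results was not tested. CDKN1A, a p53 target used as a check of the treatment, was higher in OXA in every library (log2 fold change 2.93 ± 0.148 SE, edgeR adjusted p = 0.000445). Values below are raw counts scaled by TMM, a normalization with 1 factor per library, and called normalized counts. Fold changes are OXA over NT from edgeR's fit of all 13727 genes that passed its filter on low counts.

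NECTIN4 showed by far the largest difference of the 7 genes, PVR was higher in every OXA library by a smaller margin, NECTIN1, NECTIN2, NECTIN3 and CADM4 overlapped between the groups, and CADM1 was not detected. Of the 7 genes, 6 passed the filter and 1 of these, NECTIN4, was called at an adjusted p-value under 0.05, where 5.07% of all genes tested were called, 2.78% higher and 2.29% lower in OXA. Its fold was also past 1.5, as for 3.41% of the genes tested, 1.97% being higher. In 2 of the 6, NECTIN4 and PVR, the lowest OXA library exceeded the highest NT library. No overlap was found for 28.9% of all genes, 14.5% with OXA above and 14.4% with OXA below. limma-voom called NECTIN4 alone, where 4.84% of all genes were called (2.73% higher, 2.11% lower), and DESeq2 called NECTIN4 and PVR, 2 of the 6, where 9.24% were called (4.61% higher, 4.63% lower). With the block on the replicate number, 3 of the 6 were called (NECTIN1, NECTIN4 and PVR) against 23.0% of all genes, 12.1% higher and 10.9% lower. Nothing is read from these counts, since this comparison was known when the genes were chosen.

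NECTIN4 (ENSG00000143217) lies on chromosome 1 of GRCh38 from 161070998 to 161089558 on the minus strand. Its product, a partner of NECTIN1, is found in placenta and several carcinomas and is the target of an antibody-drug conjugate used in urothelial cancer. The 250 bases before the start sites of NECTIN4 and PVR are shown because these were the genes without overlap between the groups. Both are read from RefSeq (GRCh38.p14), 5′ to 3′ on the strand of the gene, NECTIN4 at chr1:161089559-161089808 (minus) and PVR at chr19:44643660-44643909 (plus). The PVR window ends inside the gene span given below, because that span is from GENCODE and begins before the RefSeq start. Capitals mark GGGCGG, the GC box, on either strand (CCGCCC where it lies on the other strand) and GGAATG, the word bound by TEAD factors.
NECTIN4: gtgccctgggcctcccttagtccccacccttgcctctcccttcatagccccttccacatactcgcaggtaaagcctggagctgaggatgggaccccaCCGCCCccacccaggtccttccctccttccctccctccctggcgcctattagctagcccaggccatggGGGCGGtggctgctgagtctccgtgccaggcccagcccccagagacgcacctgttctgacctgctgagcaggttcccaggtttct
PVR: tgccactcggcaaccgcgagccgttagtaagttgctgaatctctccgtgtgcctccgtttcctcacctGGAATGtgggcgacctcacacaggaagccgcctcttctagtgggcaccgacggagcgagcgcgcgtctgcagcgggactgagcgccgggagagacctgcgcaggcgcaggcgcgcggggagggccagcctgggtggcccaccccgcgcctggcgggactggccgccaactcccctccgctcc

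The NECTIN4 window, which reached 50 bases past the start, held 2 GC boxes and no GGAATG, whereas that of PVR held no GC box and 1 GGAATG, at positions -182 to -177 from the start. Among 27305 RefSeq promoters of the same length, 44.6% held a GC box and 14.0% GGAATG on either strand. The promoter table had entries for 5 of the 7 genes, all but NECTIN1 and CADM1. None of the 5 held the p53 decamer (6.54% of all promoters), TGANTCA, the AP-1 word (7.76%), or TATAAA (12%). The E-box CANNTG (68.9% of all promoters) occurred 1 time for NECTIN4 and 2 times for PVR, once sharing a base with GGAATG. A complete p53 element was a pair of decamers without mismatch and at most 13 bases apart. It was searched within 5 kb on either side of the GENCODE start of each gene's representative transcript, and 1.29% of 20033 protein-coding genes had one. None of the 7 genes did, which says only that these letters are not in these windows.

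NECTIN4 had 22, 21 and 15 raw counts in NT libraries 1 to 3 and 192, 170 and 146 in OXA libraries 1 to 3. Every OXA library was far above every NT library. As normalized counts the NT libraries averaged 19.3 ± 4.90 (SD, n = 3) and the OXA libraries 174 ± 40.0. The log2 fold change was 3.17 with a standard error of 0.287, a fold of 9.0. By log2 fold change it ranked 9 of the 13727 genes tested. The difference was nearly equal in the 3 pairs of same-numbered libraries, with log2 values of 3.21, 3.09 and 3.25. In both groups library 3 was the lowest. NECTIN4-AS1, an antisense RNA, overlaps NECTIN4 over 3107 bases. Its gene identifier was not found among the genes of the deposited table, so it has no counts here. The library kit keeps strand, but whether the authors counted by strand is not given in the sources used here, and without it reads of the pair cannot be told apart.

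**Figure D1:**
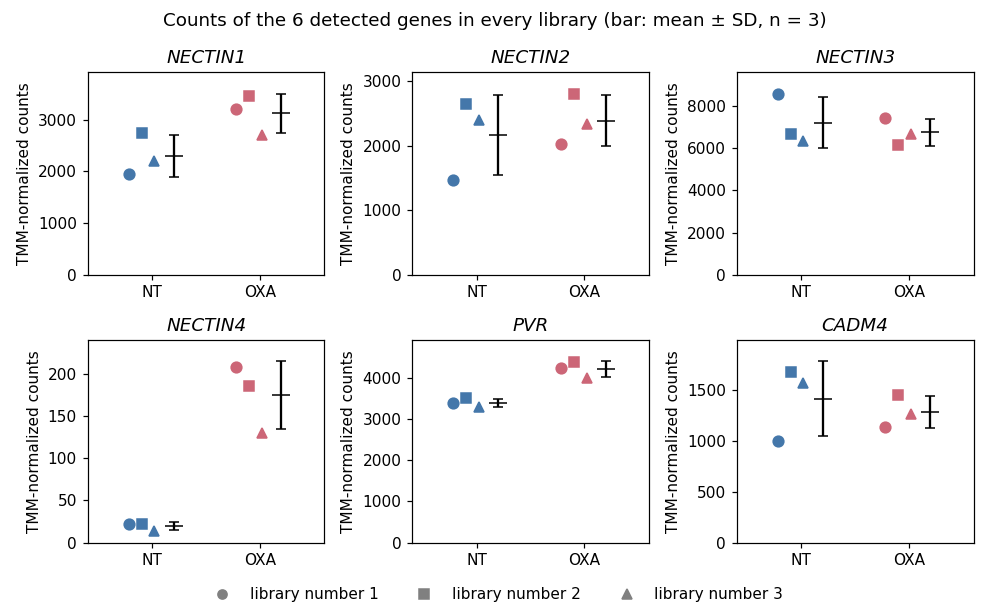
TMM-normalized counts (vertical axes, from 0) of the 6 detected genes in the NT and OXA libraries, with the library number as the symbol and the mean ± SD (n = 3) as a bar. NECTIN4 and PVR are higher in all 3 OXA libraries, the other 4 genes overlap between the groups.

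PVR (ENSG00000073008, chromosome 19 of GRCh38 from 44643798 to 44666162, plus strand) encodes the ligand of CD226, TIGIT and CD96 through which poliovirus enters cells. NT libraries 1 to 3 held 3382, 3503 and 3298 normalized counts of it, and OXA libraries 1 to 3 held 4235, 4382 and 4006. The groups did not overlap, and the spread within them was the smallest of the 6 genes, at 3.04% of the mean in NT and 4.50% in OXA. The log2 fold change was 0.31 with a standard error of 0.0805, a fold of 1.24. The 3 same-numbered pairs differed by 0.33, 0.32 and 0.28 on the log2 scale. PVR was not called by edgeR without the block, but was with it. CEACAM19 overlaps the last 3885 bases of PVR on the same strand. With 16 to 47 raw counts in a library, CEACAM19 was far below PVR.

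NECTIN1 (ENSG00000110400, chromosome 11 of GRCh38 from 119623408 to 119729200, minus strand), a partner of NECTIN3 and NECTIN4 in cell contacts and an entry receptor of herpes simplex virus, was counted at 1938, 2733 and 2204 (normalized) without drug and at 3198, 3455 and 2702 with it. NT library 2 lay just above OXA library 3, so the groups overlapped. The log2 fold change was 0.44 with a standard error of 0.149, a fold of 1.36, and every same-numbered pair was higher in OXA, by 0.72, 0.34 and 0.29 on the log2 scale. Pair 1 differed most, and NT library 1 was the lowest of all 6.

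NECTIN2 (ENSG00000130202, chromosome 19 of GRCh38 from 44846175 to 44889223, plus strand), the ligand of PVRIG and CD226, was at 1465, 2645 and 2396 normalized counts without drug and at 2021, 2805 and 2334 with it. NT library 1 stood below the other 5 and the groups overlapped. The log2 fold change of 0.14 (standard error 0.222) was smaller than its error, and without NT library 1 it became -0.079. NECTIN3 (ENSG00000177707, chromosome 3 of GRCh38 from 111070071 to 111275563, plus strand), which pairs with NECTIN1, NECTIN2 and PVR, was at 8575, 6664 and 6351 without drug and at 7434, 6124 and 6642 with it. Here NT library 1 was the highest of the 6. The log2 fold change was -0.096 (standard error 0.136), and without NT library 1 it was 0.050. The direction of NECTIN2 and of NECTIN3 thus rested on 1 library.

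CADM4 (ENSG00000105767, chromosome 19 of GRCh38 from 43622368 to 43639850, minus strand), an epithelial and Schwann cell adhesion molecule, was at 997, 1680 and 1575 normalized counts without drug and at 1140, 1453 and 1271 with it. The lowest and the highest of the 6 libraries were both NT, and the log2 fold change was -0.14 with a standard error of 0.20. Pair 1 was higher in OXA by 0.19 on the log2 scale, whereas pairs 2 and 3 differed by -0.21 and -0.31. CADM4 is separated from PVR by 1003947 bases, and PVR from NECTIN2 by 180012 bases of the same chromosome, so 3 of the 7 genes share this stretch, with log2 fold changes of -0.14, 0.31 and 0.14.

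CADM1 (ENSG00000182985, chromosome 11 of GRCh38 from 115169218 to 115504957, minus strand), known as a tumor suppressor often silenced in carcinomas, had 0 counts in all 6 libraries. A count of 0 allows up to 3 counts (for counting error only), which for CADM1 is a level of between 0.00844 and 0.0105 CPM (counts relative to the library size) per kilobase of transcript in a library. CADM2 and CADM3, the other members of the family, also had 0 counts in every library. CADM4 was therefore the one CADM gene with counts. EPB41L3, which encodes the band 4.1 protein that binds the CADM1 tail, had 0 counts in every library too.

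Levels of different genes were compared as CPM per kilobase, the counts relative to the library size divided by the length of the representative transcript. Without drug, NECTIN3 was the highest at 38.5 ± 6.44 (SD over 3 libraries), followed by NECTIN2 at 22.4 ± 6.43. CADM4 at 18.0 ± 4.67 and PVR at 16.3 ± 0.495 came next, then NECTIN1 at 10.7 ± 1.89 and, far lower, NECTIN4 at 0.155 ± 0.0394. NECTIN3 was above NECTIN2, and PVR above NECTIN1, in every NT library, whereas the ranges of NECTIN2, CADM4 and PVR overlapped with their neighbours in this order. In OXA the order was NECTIN3 (36.0 ± 3.53), NECTIN2 (24.7 ± 4.08), PVR (20.2 ± 0.909), CADM4 (16.4 ± 2.00), NECTIN1 (14.6 ± 1.79) and NECTIN4 (1.40 ± 0.321). PVR and CADM4 exchanged places and no longer overlapped, while NECTIN2 with PVR and CADM4 with NECTIN1 did.

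NECTIN4 stayed the lowest detected gene in OXA, with NECTIN1, the next in order, 10.4 times higher, against 68.8 times in NT. Of the summed level of the 4 nectins, NECTIN4 made up between 0.159% and 0.257% in NT and between 1.43% and 2.16% in OXA. NECTIN3 made up 53.8% ± 10.0 of it in NT and 47.1% ± 5.24 in OXA, with overlapping ranges. The sum itself was 71.7 ± 3.65 in NT and 76.6 ± 3.04 in OXA, between 69.1 and 75.9 against between 73.3 and 79.3. The levels depend on the length used, and with the union of all exons of a gene PVR stood at 9.05 in NT, nearer to NECTIN1 at 8.15 than to CADM4 at 17.5, and at 11.2 in OXA, below CADM4 at 15.9.

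**Figure D2:**
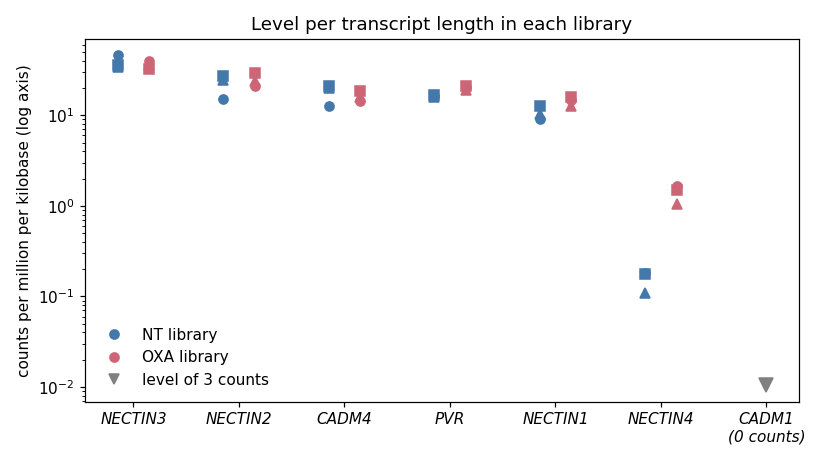
CPM per kilobase of transcript (log axis) for each gene in each NT and OXA library, in the order of the NT means, with the level of 3 counts for CADM1, which had 0 counts. NECTIN3 is the highest and NECTIN4 the lowest detected gene in both groups.

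The spread within the groups ran in opposite directions for NECTIN3, the gene with the lowest GC content, and for the GC-rich NECTIN2 and CADM4. NECTIN1 (60.7% GC) followed them in part, at -0.23, 0.27 and -0.042 in NT but at 0.044, 0.16 and -0.20 in OXA. NECTIN2 (60.8% GC) deviated from its NT mean by -0.52, 0.33 and 0.19 on the log2 scale in NT libraries 1 to 3, and CADM4 (60.1% GC) by -0.47, 0.28 and 0.19. NECTIN3 (35.3% GC) went the other way, at 0.27, -0.098 and -0.17. NECTIN4 (55.5% GC) matched neither, being lowest in library 3 of both groups, at -0.46 in NT and -0.40 in OXA. Across 13675 genes, which are not independent replicates, Spearman's correlation of this deviation with GC content was -0.786 in NT library 1, 0.733 in NT library 2 and 0.477 in NT library 3, and -0.590, 0.661 and -0.178 in the OXA libraries. In an alternative chosen after seeing the data, each library's trend on GC content was removed beside the block. That trend was taken against the mean of all 6 libraries, so a difference between the groups that follows GC content was removed too. The part of GC content in the differences between the groups was therefore not tested. This fit gave NECTIN4 a log2 fold change of 3.06. It lowered PVR from 0.31 to 0.25, a shift larger than its spread between replicates, and NECTIN1 from 0.44 to 0.24. NECTIN2 was placed at -0.044, NECTIN3 at -4.01e-05 and CADM4 at -0.31. In that fit NECTIN1, NECTIN4, PVR and CADM4 were called, 4 of the 6 genes where 46.5% of all genes were called, 23.7% higher and 22.8% lower.

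**Figure D3:**
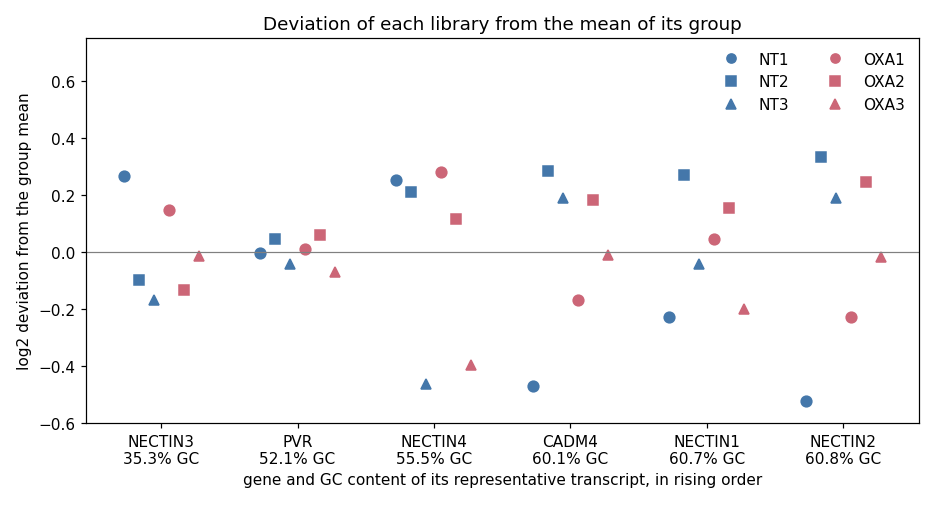
Deviation of each library from the mean of its group (log2 of normalized counts, vertical axis) for the 6 detected genes, in rising order of transcript GC content (horizontal axis), with the group as the color and the library number as the symbol. Libraries 1 (circles) are the highest for NECTIN3 and the lowest for NECTIN2 and CADM4.

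**Figure D4:**
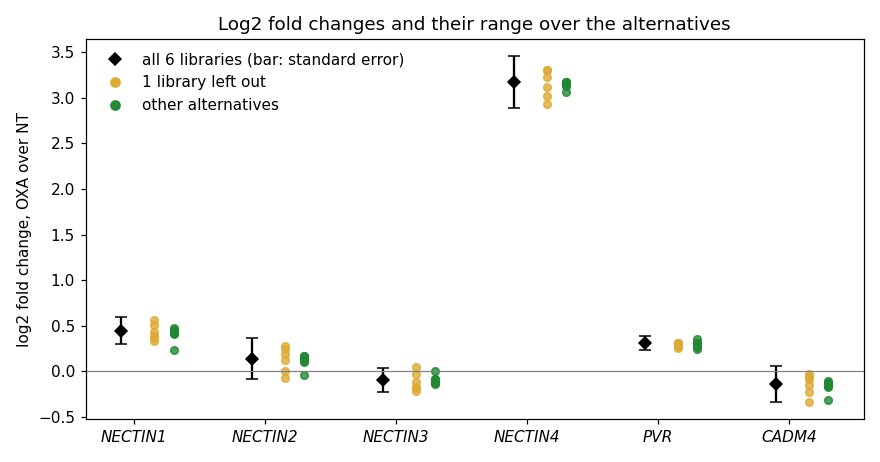
Log2 fold change of OXA over NT (vertical axis) for the 6 detected genes from all 6 libraries with its standard error (diamond), with 1 library left out (6 points) and under the other alternatives. NECTIN4 stays between 2.93 and 3.31, and NECTIN2 and NECTIN3 have points on both sides of 0.

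The receptors on the immune side of these contacts were absent or near the detection limit. Of TIGIT, CD226, CD96, CRTAM and PVRIG, only CD226 (9 to 19 raw counts in a library) and CD96 (12 to 21) passed the filter, and the other 3 had at most 4 counts. Neither was called (edgeR adjusted p = 0.737 for CD226 and 0.732 for CD96), where 5.07% of all genes were. Neither had an unadjusted p under 0.05, against 21.7% of all genes.

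None of the intracellular partners of nectins and adherens junction genes was called by edgeR without the block. Of 28 listed genes 27 were tested, with log2 fold changes between -0.39 and 0.51 and a median of -0.051, against a median of 0.023 over all genes tested. The upper end was JUP, which encodes plakoglobin, at 0.51 ± 0.287 SE (edgeR adjusted p = 0.362), named after its values were seen. edgeR called 0 of the 27, where 5.07% of all genes were called. Of the 27, 3 had an unadjusted p under 0.05, against 21.7% of all genes tested. DESeq2 called 1 and limma-voom 0, where 9.24% and 4.84% of all genes were called. The groups did not overlap for 6 of the 27, where 28.9% of all genes had no overlap. AFDN, which encodes afadin, was at 2767 ± 249 normalized counts without drug and at 2303 ± 74.6 with it, a log2 fold change of -0.26 ± 0.0961 SE (edgeR adjusted p = 0.162). CDH1, which encodes E-cadherin, was at 4041 ± 301 and 3527 ± 381, a log2 fold change of -0.20 ± 0.108 SE (edgeR adjusted p = 0.349). The catenin genes CTNNB1 and CTNNA1, with the most normalized counts of the list (not divided by length), had log2 fold changes of -0.039 (edgeR adjusted p = 0.871) and 0.036 (edgeR adjusted p = 0.838). With the block, 4 of the 27 were called, where 23.0% of all genes were: AFDN (edgeR adjusted p = 0.0283), CDH1 (0.0408) and the afadin-binding SSX2IP (0.010) were lower in OXA, and VCL, which encodes vinculin, was higher (0.0416). SSX2IP and VCL are named after their values were seen.

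Nectins and PVR can be cut from the cell surface by metalloproteases. Of ADAM10, ADAM17, ADAM9, ADAM15 and their inhibitor TIMP3, edgeR called 0 of 5, where 5.07% of all genes were called. None had an unadjusted p under 0.05, against 21.7% of all genes. DESeq2 and limma-voom called 0 each, where 9.24% and 4.84% of all genes were called. ADAM9 and ADAM10, with the most normalized counts of the 5 (not divided by length), had log2 fold changes of -0.11 (edgeR adjusted p = 0.641) and -0.075 (edgeR adjusted p = 0.714). With the block 1 of the 5 was called, where 23.0% of all genes were. It was TIMP3, lower in OXA (log2 fold change -0.45 without and -0.47 with the block, edgeR adjusted p = 0.616 and 0.0398). TIMP3 overlapped between the groups and is named after its values were seen.

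Among 20 other adhesion genes of the immunoglobulin superfamily, 14 were tested. Of these edgeR called 1, where 5.07% of all genes were called, 2.78% higher and 2.29% lower. CEACAM1, an adhesion molecule of epithelia and leukocytes and a ligand of its own kind, was at 26.6, 23.9 and 54.8 normalized counts without drug and at 140, 149 and 138 with it. It rose without overlap, by a log2 fold change of 2.01 ± 0.319 SE (edgeR adjusted p = 0.0165). The call was lost without NT library 2 or any 1 of the OXA libraries, with log2 fold changes between 1.77 and 2.46 when 1 library was left out. It has close copies in its family, and how the authors assigned reads shared between them is not given in the sources used here. CEACAM5 had at most 2 counts and CEACAM6 had 0 in every library. The median log2 fold change of the 14 was 0.039. With the block 5 of the 14 were called, where 23.0% of all genes were: beside CEACAM1, ALCAM, ICAM1 and VSIG1 were higher (edgeR adjusted p = 0.0112, 0.0143 and 0.0495) and CXADR lower (0.0169). These 4 were named after their values were seen, and VSIG1 had at most 12 raw counts.

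Beside PVR and NECTIN2, 14 other ligands of NK and T cell receptors were listed, of which 13 were tested, with a median log2 fold change of 0.065. edgeR called 0 of the 13, limma-voom 0 and DESeq2 3, where they called 5.07%, 4.84% and 9.24% of all genes. Of the 13, 4 had an unadjusted p under 0.05, against 21.7% of all genes. CD276 and MICB, with the most normalized counts (not divided by length), had edgeR adjusted p of 0.781 and 0.460. With the block 3 of the 13 were called, a share like the 23.0% of all genes, all ligands of the NK receptor NKG2D and all named after their values were seen. MICA was at 894 ± 86.7 normalized counts without drug and at 1188 ± 70.1 with it (log2 fold change 0.41, edgeR adjusted p = 0.0824 without and 0.0184 with the block). RAET1E was at 114 ± 11.5 and 188 ± 20.8 (log2 fold change 0.73, edgeR adjusted p = 0.0531 and 0.0161). ULBP1 was lower in OXA, at 536 ± 71.0 and 350.2 ± 24.1 (log2 fold change -0.61, edgeR adjusted p = 0.0519 and 0.00982). These 3 called ligands thus differed in direction, and in all 3 the groups did not overlap. The groups also did not overlap for ULBP2 and RAET1L (log2 fold changes 0.40 and 0.62), which edgeR did not call with or without the block. Together these were 5 of the 13, where 28.9% of all genes had no overlap. Groups overlapped for MICB, ULBP3 and RAET1G. ULBP and RAET1 genes belong to the same family, and how alike they are in sequence was not examined. How the authors assigned reads shared between them is not given in the sources used here.

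**Figure D5:**
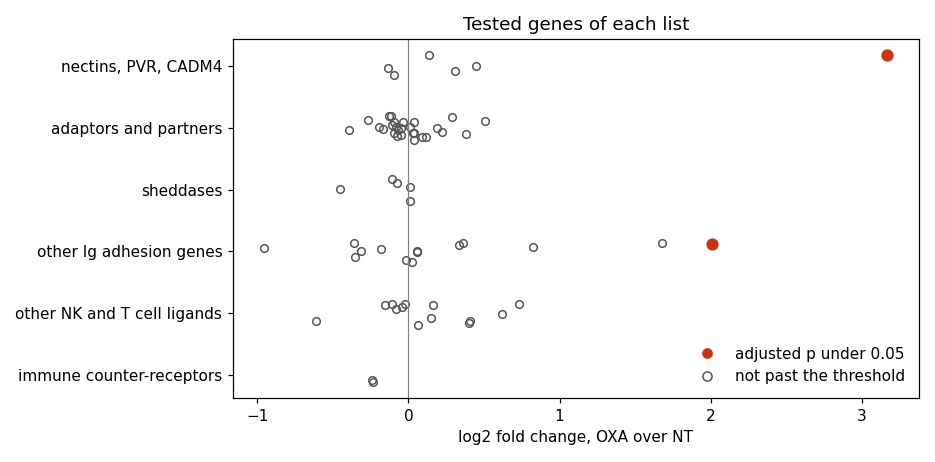
Log2 fold change of OXA over NT (horizontal axis) for each tested gene of the nectin, PVR and CADM genes and of the 5 other lists, with genes past an edgeR adjusted p of 0.05 filled. NECTIN4 at 3.17 and CEACAM1 at 2.01 are the filled points.

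The genes whose log2 levels followed each gene most closely over the 6 libraries were looked up among tested genes with a mean of at least 50 normalized counts. For NECTIN4 they were ATXN7L1 (Pearson r = 0.998), PTCHD4 (0.998) and TNFRSF10D (0.997), and for PVR KIAA1217 (0.997), SYNE1 (0.996) and SULF2 (0.996). PVR and NECTIN4 had an r of 0.984 with each other. For NECTIN1 they were ARHGAP23 (0.998), BAG3 (0.996) and RTL8A (0.996), for NECTIN2 SNAPC2, LLGL2 and MBD3 (0.999 each), for NECTIN3 UBE2D3 (0.997), UBE2V2 (0.997) and PDZD8 (0.995), and for CADM4 TMEM94 (0.998), FMNL1 (0.997) and ZNF646 (0.996). NECTIN2 and NECTIN3 had an r of -0.962. All of these rest on the same 6 libraries, which share the group difference and the trend on GC content, and they are a description.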

How the data were processed

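The authors sequenced polyadenylated RNA of 6 HCT116 libraries as paired reads of 100 nt and deposited, per gene, whole-number raw counts and a normalized signal. The submitters' processing notes list Trimmomatic 0.32, STAR 2.7.5b, RSEM 1.3.3 and DESeq2 2.13 with GRCh38, and the gene annotation and strand setting of the counting are not given in the sources used here. The deposited raw counts were used as they are. The authors' normalized signal, whose factor differs between genes, served for 1 alternative. Raw counts summed to between 32979521 and 40967880 per library, and intervals of counts cover counting error only.

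Genes were filtered with filterByExpr (minimum count 10, minimum total 15), scaled by TMM and compared by the quasi-likelihood test of edgeR 4.0.16 in R 4.3.3, and p-values were adjusted by Benjamini-Hochberg over 13727 genes. limma 3.58.1 and DESeq2 1.42.0 served for alternatives. The standard error is the log2 fold change divided by the square root of F. The edgeR fits with and without the block, DESeq2 and limma-voom were tested on simulated counts. These held no trend on GC content and no effect of the replicate number, so they do not cover such trends. The fit with GC trends removed was not simulated. GENCODE release 44 on GRCh38, the build of the authors' mapping, gave positions, GC content and transcript lengths, and RefSeq the promoters. Protein sequences were not analysed here.

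Deviations from the group means correlated at 0.710, 0.711 and 0.410 for libraries 1, 2 and 3 of the same number. The numbers, taken from the titles of the samples, were used for the same-numbered pairs and as the block where one is named. All other fits, including the main edgeR fit, DESeq2 and limma-voom, did not use this pairing. Whether a number marks a shared day or culture is not stated. The genes, lists and tests were chosen with earlier results of these data known. Named are the 7 genes, CDKN1A, and of each other list the genes called or, with none called, the 2 with the most normalized counts, with AFDN, CDH1, CADM2, CADM3 and the immune receptors in any case, and the 3 genes most alike to each detected gene.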

Additional observations from a re-analysis of the deposited data

How the results depend on the processing

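The direction of NECTIN1, NECTIN4, PVR and CADM4 was the same under every alternative, and NECTIN4 was called in every fit. Leaving out 1 library gave log2 fold changes of 0.34 to 0.56 for NECTIN1, -0.079 to 0.28 for NECTIN2, -0.21 to 0.050 for NECTIN3, 2.93 to 3.31 for NECTIN4, 0.26 to 0.31 for PVR and -0.34 to -0.025 for CADM4. The changes of sign of NECTIN2 and NECTIN3 came from leaving out NT library 1, and NECTIN2 also had -0.044 with the block and the trends on GC content removed. In that setting, chosen after seeing the data, PVR was at 0.25. Of the 6 genes, 1 was called higher in OXA with all libraries, where 2.78% of all genes were. Each of the 6 fits without a library also called 1 higher, where 66 to 623 genes were. DESeq2 called 2 higher (4.61% of all genes), the replicate block 3 (12.1%) and the block with GC trends removed 3 (23.7%). That last fit also called 1 lower (22.8% of all genes), where 0 were called lower otherwise. Nothing is read from these counts.

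Over all genes, 381 were higher and 315 lower. DESeq2 called 633 higher and 635 lower, the replicate block 1664 and 1493, and the block with GC trends removed 3246 and 3115. Upper quartile factors gave 493 lower. Leaving out 1 library gave 66 to 623 higher and 19 to 571 lower, lowest without OXA library 1 and highest without NT library 1. The cause of these differences was not tested.

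The 4 other lists below held 27, 5, 14 and 13 tested genes, in this order. Of all genes, DESeq2 called 9.24%, limma-voom 4.84%, the replicate block 23.0% and the block with GC trends removed 46.5%. Of the adherens junction partners, DESeq2 called 1 lower, and the replicate block 1 higher and 3 lower. The block with GC trends removed called 4 higher and 8 lower, and leaving out a library 0 of either. Of the sheddases the block called 1 lower, and 2 with GC trends removed. Of the other immunoglobulin adhesion genes, 2 were called higher by DESeq2, 2 by limma-voom, 4 with the block (and 1 lower) and 4 with GC trends removed (and 5 lower), and between 0 and 2 without a library. Of the other NK and T cell ligands, DESeq2 called 2 higher and 1 lower, the block 2 and 1, and the block with GC trends removed 3 and 2. Upper quartile factors and no filter on low counts called 1 lower each, and leaving out a library 0 to 2 higher and 0 to 1 lower, the calls coming without NT library 1.

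With the union of exons as the length, the level in CPM per kilobase was 8.15 in NT and 11.1 in OXA for NECTIN1, 17.7 in OXA for NECTIN2, 25.9 and 24.3 for NECTIN3, and 9.05 and 11.2 for PVR. The low counts of NECTIN4 in NT, 15 to 22 in a library, limit the precision of its fold change.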
